A study of Mus musculus with 8 samples.

Results

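Hearts of Trim21 knockout mice with experimental autoimmune myocarditis (EAM) were compared with hearts of wild-type mice with the same disease. The comparison used 6 of the 8 RNA-seq libraries of the series, 3 from EAM knockout hearts and 3 from EAM wild-type hearts. It covered 10393 of the 34745 genes in the deposited table, chosen as those with an FPKM (fragments per kilobase of transcript, scaled to the total fragments of the library) of at least 1 in at least 2 of the 8 libraries. EAM knockout and EAM wild-type hearts both carried the labels heart, Balb/c and day 21, and their mice had been immunized on days 0 and 7 with a peptide of α-myosin heavy chain, at 100 µg per mouse, emulsified in complete Freund's adjuvant. The other 2 libraries were wild-type Balb/c control hearts labelled day 0, for which the protocol describes adjuvant with buffer alone. They shared the estimate of spread, and their values are given beside those of the EAM groups. The series asked how TRIM21 acts in autoimmune myocarditis, and its title names IL-17A signalling, the adaptor TRAF3 and cardiac fibroblasts. The labels do not say how the knockout allele was made, which cells lack the protein, whether the genotypes were littermates, which parts of the heart were taken, at what hour the hearts were collected, or the sex and age of the mice. Names that the same libraries carry elsewhere in the deposited tables read day 35, not day 21, in both EAM groups.

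TRIM21 is an E3 ubiquitin ligase of the tripartite motif family that binds the Fc part of antibodies inside the cell and marks antibody-coated pathogens and several signalling proteins for degradation. EAM is a CD4 T-cell-driven disease in which monocytes and macrophages enter the heart muscle, interferon-γ raises antigen presentation, and fibroblasts lay down matrix. Most heart cells also run a circadian clock, in which BMAL1 (encoded by Arntl) with CLOCK or NPAS2 switches on the Per, Cry and Nr1d genes, whose products in turn repress that pair or the Arntl gene itself.

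Depth, inferred from the smallest steps of the FPKM values, was close to even at 14980000 to 16370000 fragments in EAM knockout libraries, 14390000 to 15330000 in EAM wild-type libraries and 14710000 to 16930000 in control libraries. Mitochondrially encoded transcripts took 40.3% to 43.6% of the length-weighted signal in EAM knockout libraries, 33.6% to 41.8% in EAM wild-type libraries and 36.5% to 39.1% in control libraries. Atrial transcripts differed widely inside each EAM group. Sln, the atrial regulator of the calcium pump, was at 531, 421 and 0.119 FPKM in EAM knockout libraries 1, 2 and 3, at 15.5, 395 and 58.9 FPKM in EAM wild-type libraries 1, 2 and 3, and at 0.459 and 0.132 FPKM in the controls. The summed log2(FPKM + 1) of the 14 listed atrial genes, of which 13 were tested, ran from 29.8 to 77.8 in EAM knockout, from 44.0 to 77.1 in EAM wild-type and from 30.7 to 31.8 in control libraries. EAM knockout libraries 1 and 2 and EAM wild-type library 2 are called atrial-rich below, and the genotypes overlapped in these sums. Without those 3 libraries only EAM knockout 3 was left in its group, against EAM wild type 1 and 3, with 2 residual degrees of freedom left. Results of that fit therefore rest on 1 knockout library.

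The targeted gene followed the labels. Trim21 (chr7:102557922-102565469, minus strand, coordinates as in the deposited table) was at 0.0481, 0 and 0.022 FPKM in EAM knockout hearts, against 2.98, 3.29 and 3.37 FPKM in EAM wild-type hearts and 1.98 and 2.18 FPKM in controls. Every knockout library lay under the value that 3 fragments would give, which was 0.0493 to 0.0539 FPKM, a floor that covers counting error only. The difference was -2.04 on the log2(FPKM + 1) scale (SE 0.10, limma adjusted p = 1.52e-05), and this scale understates changes of low genes. The call stood in all 8 fits that left out 1 library.

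Across all genes the knockout hearts differed more often by lower than by higher expression. At a limma adjusted p under 0.05, 30 of 10393 genes were higher in EAM knockout hearts (0.289%) and 291 were lower (2.80%), 321 in all (3.09%). At an unadjusted limma p under 0.05 the count was 2075 (20.0%). The groups did not overlap in any of the 321 called genes. Such separation was common in these libraries, since 268 of all tested genes lay wholly above the wild type (2.58%) and 2352 lay wholly below it (22.6%). A difference of at least 2-fold on the log2(FPKM + 1) scale was reached by 16 of the higher and 64 of the lower genes, and the median called gene fell by 0.73 on that scale when lower. Called shares were similar at all levels, from 2.62% of genes under 2 FPKM to 3.68% of genes over 100 FPKM.

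The split between higher and lower genes depended on scaling. With values as deposited, 72.8% of all tested genes had a negative difference and the median gene was at -0.116. Median-ratio scaling moved that median to 0.004 and gave 46 genes higher and 85 lower, and quantile normalization gave 57 higher and 98 lower. Differences below are as deposited unless stated, and a list is therefore read beside the all-gene median of -0.116. Counts of called list genes are read beside the 0.289% of all tested genes called higher and the 2.80% called lower. Counts at an unadjusted limma p under 0.05 are read beside 20.0%. Single libraries also set the count of lower genes, which was 72 without EAM knockout 2, 116 without EAM knockout 3, 80 without EAM wild type 1, 163 without EAM wild type 2 and 184 without EAM wild type 3. Without EAM knockout 3 the higher genes numbered 49. All p-values rest on the spread among these few libraries, which may be technical, since the labels do not say how many animals stand behind each library.

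**Figure D1:**
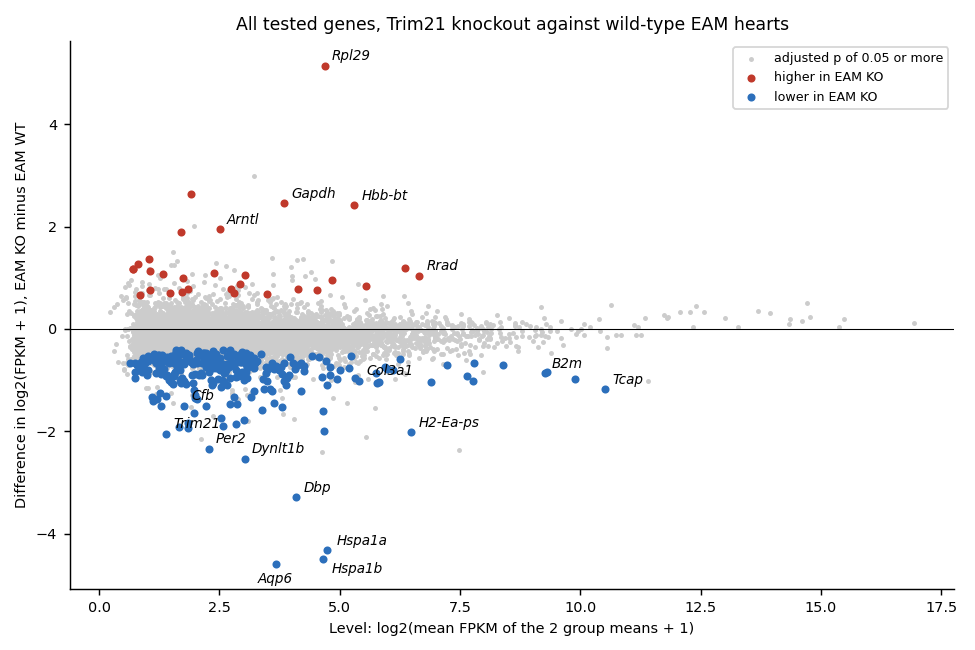
Each point is 1 of the 10393 tested genes. The horizontal axis gives its level as log2 of the mean FPKM of both EAM groups plus 1, and the vertical axis the difference in log2(FPKM + 1), EAM knockout minus EAM wild type. Red points are the 30 genes called higher and blue points the 291 called lower. The largest rise was Rpl29 at 5.14 and the largest falls were Aqp6 at -4.58, Hspa1b at -4.49 and Hspa1a at -4.32.

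The circadian clock genes differed in both directions. Of 16 core clock genes tested, 2 were higher and 8 lower in EAM knockout hearts, with a median difference of -0.65. Of 15 clock output genes tested, 1 was higher and 7 were lower, with a median of -0.51. Among all tested genes 0.289% were higher and 2.80% lower. Under median-ratio scaling the counts were 2 higher and 7 lower in the core list and 1 higher and 6 lower in the output list. Leaving out single libraries left 6 to 8 lower calls in the core list and 3 to 7 in the output list.

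On the activator side, Arntl and Npas2 were higher. Arntl, which encodes the activator BMAL1, was at 7.22, 8.19 and 8.56 FPKM in EAM knockout hearts, against 0.766, 1.89 and 1.47 FPKM in EAM wild-type hearts and 1.12 and 0.211 FPKM in controls. Every knockout library lay above every library of both other groups. The difference was 1.95 (SE 0.23, limma adjusted p = 0.00456). Npas2, the partner that can stand in for CLOCK, was at 1.74, 2.38 and 1.40 FPKM in EAM knockout hearts, against 0.113, 0.343 and 0.432 FPKM in EAM wild-type hearts and 0.179 and 0.151 FPKM in controls. It separated the groups in the same way, with a difference of 1.13 (SE 0.16, limma adjusted p = 0.00903). Nfil3, a repressor of D-box genes, was at 12.1, 8.61 and 9.71 FPKM in EAM knockout hearts, against 3.94, 3.86 and 5.13 FPKM in EAM wild-type hearts and 8.34 and 4.16 FPKM in controls. Its EAM groups did not overlap (1.06, SE 0.22, limma adjusted p = 0.0344), although control 1 lay just under the lowest knockout library. The Nfil3 call was lost in 6 of the 8 fits that left out 1 library, each of the EAM libraries in turn, with adjusted p up to 0.107.

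Several repressor and output genes were lower. Dbp, a D-box activator with one of the deepest daily rhythms known in mouse tissue, was at 3.19, 1.80 and 1.76 FPKM in EAM knockout hearts, against 32.5, 30.3 and 27.1 FPKM in EAM wild-type hearts and 15.4 and 34.2 FPKM in controls. The knockout values were separate from both other groups (difference -3.28, SE 0.27, limma adjusted p = 0.000576). Per2, a core repressor, was at 1.03, 0.216 and 0.465 FPKM in EAM knockout hearts, against 10.7, 5.30 and 5.36 FPKM in EAM wild-type hearts and 15.4 and 17.9 FPKM in controls. The 3 groups did not overlap (EAM difference -2.34, SE 0.26, limma adjusted p = 0.00313). Per1, the period gene that also answers to glucocorticoids, was at 2.20, 2.24 and 1.91 FPKM in EAM knockout hearts, against 11.7, 10.8 and 8.42 FPKM in EAM wild-type hearts and 10.7 and 8.50 FPKM in controls. All knockout libraries lay under the lowest wild-type library, EAM or control (difference -1.85, SE 0.14, limma adjusted p = 0.00034). Nr1d2, the REV-ERBβ repressor of Arntl, was at 2.71, 3.37 and 2.48 FPKM in EAM knockout hearts, against 11.2, 9.02 and 8.84 FPKM in EAM wild-type hearts and 7.58 and 9.68 FPKM in controls, again with no overlap. The same separation from both other groups was seen in Ciart, a repressor of the BMAL1 complex, at 0.252, 0.272 and 0.332 FPKM in EAM knockout hearts, against 3.07, 2.13 and 1.84 FPKM in EAM wild-type hearts and 1.56 and 2.71 FPKM in controls. Tef, another D-box activator, was at 2.96, 3.23 and 2.74 FPKM in EAM knockout hearts, against 9.79, 7.91 and 9.19 FPKM in EAM wild-type hearts and 7.19 and 6.09 FPKM in controls. Arntl, Npas2, Dbp, Per1, Per2, Per3, Nr1d2, Ciart, Bhlhe40, Tef and Coq10b were called in all 8 fits that left out 1 library.

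Nr1d1, which encodes REV-ERBα, did not pass the test. It was at 13.5, 22.8 and 18.5 FPKM in EAM knockout hearts, against 50.5, 57.4 and 44.3 FPKM in EAM wild-type hearts and 10.1 and 30.6 FPKM in controls (difference -1.45, SE 0.34, limma adjusted p = 0.0574). The EAM groups did not overlap, but the controls spanned the knockout values. Among the other called genes, Bhlhe40 and Bhlhe41 encode repressors of the same E-box sites, Cry2 a core repressor, and Usp2 a deubiquitinase under clock control. The call of Bhlhe41 was lost without EAM knockout 2 (limma adjusted p = 0.0572), that of Por without the same library (0.0532), and that of Tspan4 without it (0.0508) or without EAM wild type 1 (0.0533). The calls of Cry2, Usp2 and Tsc22d3 were lost in 7, 5 and 6 of the 8 such fits, with adjusted p up to 0.127, 0.087 and 0.135. The hour of collection is not in the labels, so the hour could not be compared between the genotypes and its part in the clock results was not tested.

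**Figure D2:**
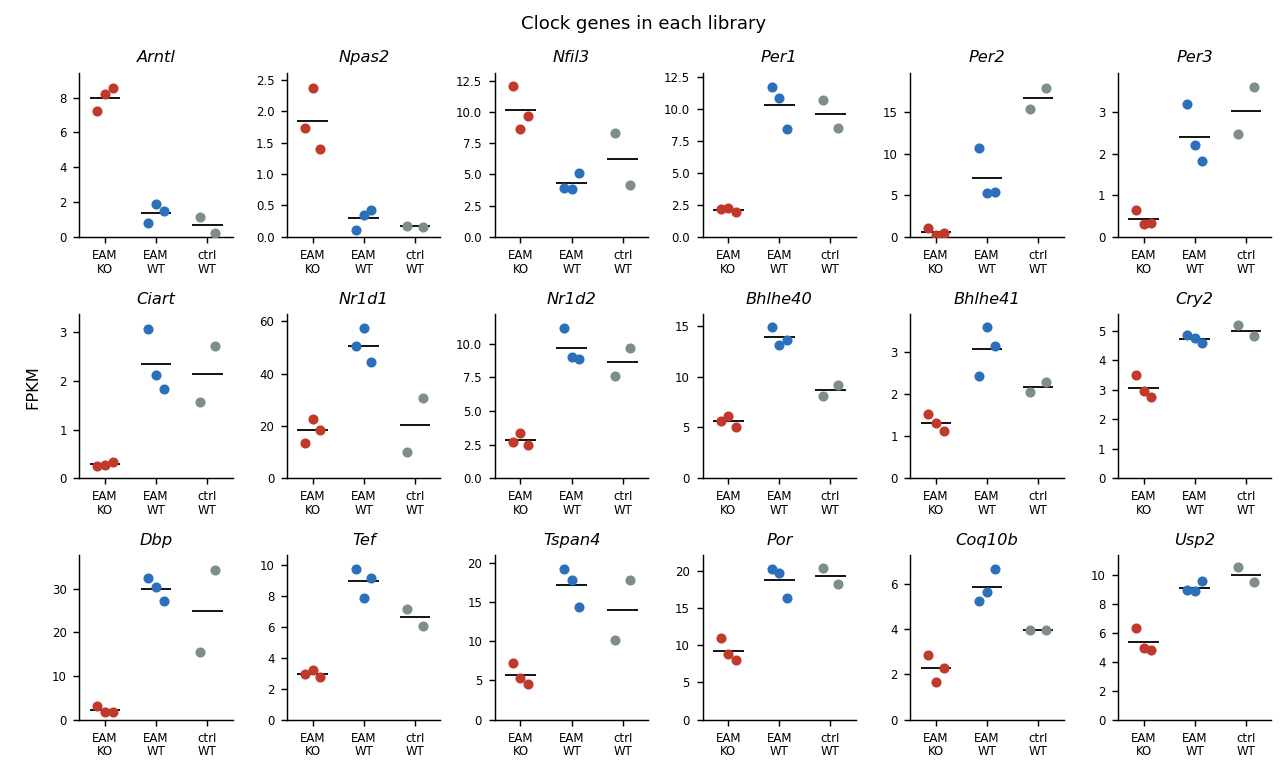
Each panel is 1 clock gene, with FPKM on a vertical axis that starts at 0, 1 point per library and a bar at the group mean, for 3 EAM knockout, 3 EAM wild-type and 2 control hearts. Arntl, Npas2 and Nfil3 are highest in EAM knockout hearts and the other 15 panels have their 3 knockout points below all EAM wild-type points. The panels are picked genes, all but Nr1d1 called, and no called gene had overlapping EAM groups. Of all tested genes, 22.6% lay wholly below the EAM wild type and 2.58% wholly above it.

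The 250 bases before the start of several of these genes are shown for the binding letters of the clock factors, from RefSeq on GRCm38.p6 and written 5′ to 3′ on the gene's strand. Searched on both strands, the E-box CACGTG stood in 6.02% of all 32851 windows and in 9.91% of the 7668 tested genes with a window. It stood in 6 of the 13 lower clock genes with a window (Bhlhe41, Ciart, Coq10b, Per1, Tef and Tspan4) and in none of the 3 higher ones. Of all 25 tested clock genes with a window, called or not, 7 held it (28.0%). Among all genes called lower the share was 12.7%. Ciart (chr3:95882229-95882478, minus strand), Per1 (chr11:69098699-69098948, plus strand), Bhlhe41 (chr6:145865421-145865670, minus strand) and Tef (chr15:81802423-81802672, plus strand) are printed with each E-box in capitals.
Ciart: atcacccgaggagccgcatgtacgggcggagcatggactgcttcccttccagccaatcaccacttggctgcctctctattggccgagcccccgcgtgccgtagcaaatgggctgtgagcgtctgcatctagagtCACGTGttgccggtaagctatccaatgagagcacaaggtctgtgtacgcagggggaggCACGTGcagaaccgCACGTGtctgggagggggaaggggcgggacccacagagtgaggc
Per1: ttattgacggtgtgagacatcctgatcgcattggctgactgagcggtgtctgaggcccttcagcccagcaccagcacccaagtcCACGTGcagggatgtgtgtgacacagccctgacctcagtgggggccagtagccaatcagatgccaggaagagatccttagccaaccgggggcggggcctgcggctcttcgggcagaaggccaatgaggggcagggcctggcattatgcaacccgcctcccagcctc
Bhlhe41: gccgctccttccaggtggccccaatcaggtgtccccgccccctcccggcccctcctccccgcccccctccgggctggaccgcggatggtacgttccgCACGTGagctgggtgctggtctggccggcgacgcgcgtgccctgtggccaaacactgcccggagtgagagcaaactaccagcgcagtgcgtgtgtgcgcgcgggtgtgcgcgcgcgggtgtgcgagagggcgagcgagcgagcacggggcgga
Tef: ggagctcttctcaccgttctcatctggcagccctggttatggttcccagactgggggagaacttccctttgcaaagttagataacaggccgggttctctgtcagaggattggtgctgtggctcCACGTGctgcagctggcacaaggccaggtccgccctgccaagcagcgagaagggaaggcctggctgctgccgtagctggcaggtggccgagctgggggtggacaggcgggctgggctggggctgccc
Ciart held 3 copies, the last of them 44 to 39 bases before the start, and the other windows 1 each. Per1 and Tef each have a further window in RefSeq, and the one of Per1 held no copy. The D-box, searched as TTATGTAA or TTACGTAA on both strands, stood in 0.931% of all windows and in 2 copies in Per3 (chr4:151044666-151044915, minus strand), a period gene at 0.636, 0.307 and 0.332 FPKM in EAM knockout hearts, against 3.19, 2.21 and 1.82 FPKM in EAM wild-type hearts and 2.48 and 3.60 FPKM in controls. The site TAGGTCA, bound by REV-ERB and ROR factors, stood in 2.23% of all windows and, as TGACCTA on the strand shown, in that of the higher gene Nfil3 (chr13:52981040-52981289, minus strand), where it ends 6 bases before the start.
Per3: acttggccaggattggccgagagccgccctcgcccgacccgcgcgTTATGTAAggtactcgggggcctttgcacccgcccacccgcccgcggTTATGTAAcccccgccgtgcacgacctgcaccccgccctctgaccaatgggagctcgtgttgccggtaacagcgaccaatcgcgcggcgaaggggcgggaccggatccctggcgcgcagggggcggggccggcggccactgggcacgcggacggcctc
Nfil3: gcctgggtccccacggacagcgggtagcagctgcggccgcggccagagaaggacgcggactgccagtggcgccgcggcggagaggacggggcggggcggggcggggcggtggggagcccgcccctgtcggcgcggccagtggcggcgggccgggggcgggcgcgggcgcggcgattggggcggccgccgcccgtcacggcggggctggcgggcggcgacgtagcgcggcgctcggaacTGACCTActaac
Capitals mark the D-boxes and that site. These matches describe the letters of 1 window per transcript start and not binding in these hearts.

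Most genes of the MHC class II pathway and a minority of class I and interferon-inducible genes were lower in EAM knockout hearts. Of 11 MHC class II pathway genes tested, 7 were lower and none higher, with a median difference of -1.01, against 2.80% of all tested genes lower. Several of the 7 lie close together on chromosome 17, where genotype and strain of origin cannot be told apart, as given below. Of 21 MHC class I and immunoproteasome genes, 4 were lower and none higher (median -0.51), and of 39 interferon-inducible genes, 6 were lower and none higher (median -0.37). Under median-ratio scaling the lower counts of these lists were 3, 1 and 3, and leaving out single libraries gave 3 to 8, 1 to 4 and 0 to 5. Without the 3 atrial-rich libraries only EAM knockout 3 was left in its group, against EAM wild type 1 and 3. The list medians were then -1.15, -0.41 and -0.12, against -0.166 for all tested genes. The interferon list was thus not below the all-gene median, on 1 knockout library. Over the listed interferon genes, summed log2(FPKM + 1) was 82.7, 84.6 and 99.1 in EAM knockout 1, 2 and 3, and 100 to 108 in EAM wild type.

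In the class II pathway, H2-Ea-ps, which encodes the α chain of the I-E molecule in some strains and is a pseudogene in the C57BL/6 reference, was at 30.7, 30.4 and 42.4 FPKM in EAM knockout hearts, against 157, 150 and 120 FPKM in EAM wild-type hearts and 28.4 and 33.3 FPKM in controls. Knockout libraries 1 and 2 lay within the control range and library 3 above it, all far under the EAM wild type (difference -2.02, SE 0.17, limma adjusted p = 0.000577). H2-DMb2, a chain of the DM complex that loads peptides onto class II, was at 1.43, 1.01 and 1.72 FPKM in EAM knockout hearts, against 5.10, 4.68 and 3.66 FPKM in EAM wild-type hearts and 1.08 and 1.21 FPKM in controls. Ifi30, a lysosomal thiol reductase that unfolds antigens, was at 13, 9.85 and 7.48 FPKM in EAM knockout hearts, against 26.7, 24 and 22.7 FPKM in EAM wild-type hearts and 13.9 and 16.6 FPKM in controls. Both separated the EAM groups, at limma adjusted p = 0.00498 and 0.0118. Cd74, the invariant chain, was at 154, 145 and 124 FPKM in EAM knockout hearts, against 337, 325 and 211 FPKM in EAM wild-type hearts and 70.1 and 108 FPKM in controls. The EAM groups did not overlap (difference -1.01, SE 0.22, limma adjusted p = 0.0445), and EAM wild type 3 was the lowest of its group. The classical chains H2-Aa and H2-Eb1 did not pass, at -1.03 and -0.97 (limma adjusted p = 0.0863 and 0.0886), with no overlap of the EAM groups. H2-Ea-ps, H2-DMb2 and Ifi30 were called in all 8 fits that left out 1 library, while Cd74 was lost in 5 of them (adjusted p up to 0.135). Cd74 was also lost under median-ratio scaling (limma adjusted p = 0.145).

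Among class I genes, B2m, the light chain of class I molecules, was at 406, 365 and 535 FPKM in EAM knockout hearts, against 815, 679 and 863 FPKM in EAM wild-type hearts and 252 and 282 FPKM in controls. Knockout values lay between the other groups, without overlap (difference -0.86, SE 0.17, limma adjusted p = 0.0294). Psmb8, an inducible catalytic subunit of the immunoproteasome, was at 4.09, 4.73 and 5.06 FPKM in EAM knockout hearts, against 9.52, 8.97 and 8.73 FPKM in EAM wild-type hearts and 2.96 and 2.90 FPKM in controls, also in between (limma adjusted p = 0.00513). Igtp, an interferon-γ-induced GTPase, was at 3.23, 3.13 and 5.95 FPKM in EAM knockout hearts, against 8.88, 14.0 and 11.8 FPKM in EAM wild-type hearts and 1.73 and 1.85 FPKM in controls. The difference was -1.32 (SE 0.22, limma adjusted p = 0.0173), with EAM knockout 3 the highest of its group. Irf1, the transcription factor that interferon-γ raises early, was at 4.41, 4 and 4.34 FPKM in EAM knockout hearts, against 7.47, 7.32 and 6.42 FPKM in EAM wild-type hearts and 2.51 and 3.36 FPKM in controls, without overlap. The other interferon calls were Irgm1 and Gbp2, GTPases, Irf8, a myeloid transcription factor, and the chemokine gene Cxcl9. Psmb8 was called in all 8 fits that left out 1 library. Cxcl9 was lost without EAM knockout 2 (limma adjusted p = 0.0565) and Igtp without EAM knockout 2 (0.0694) or EAM wild type 3 (0.0566). Irgm1, Irf1 and Gbp2 were lost in 5 of them, B2m in 6 and Irf8 in 7, at adjusted p of up to 0.114. Median-ratio scaling also lost the calls of Irf1, Gbp2, B2m and Irf8 (limma adjusted p = 0.11 to 0.13).

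Promoter windows of these genes are shown for letters of the interferon response element, GAAA and again GAAA with any 2 bases between them, searched on both strands. They stood in 2.98% of all windows, in 2.92% of tested genes with a window, and in 7 of the 18 called antigen presentation, interferon and complement genes with a window (B2m, Ctss, Gbp2, H2-T22, H2-T23, Igtp and Irgm1). The share was 7.98% among all genes called lower with a window. Those lists hold interferon-inducible genes by choice, and their uncalled members were not counted. The share in the 18 genes is therefore no trait particular to called genes. The windows of Igtp (chr11:58199306-58199555, plus strand), Irgm1 (chr11:48871421-48871670, minus strand), Gbp2 (chr3:142620413-142620662, plus strand) and B2m (chr2:122147437-122147686, plus strand) are given on the gene's strand from RefSeq on GRCm38.p6, with matches in capitals.
Igtp: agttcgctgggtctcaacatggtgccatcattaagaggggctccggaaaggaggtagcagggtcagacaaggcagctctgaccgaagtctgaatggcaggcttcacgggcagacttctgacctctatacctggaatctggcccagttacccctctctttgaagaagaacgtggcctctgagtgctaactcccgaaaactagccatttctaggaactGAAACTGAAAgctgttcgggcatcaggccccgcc
Irgm1: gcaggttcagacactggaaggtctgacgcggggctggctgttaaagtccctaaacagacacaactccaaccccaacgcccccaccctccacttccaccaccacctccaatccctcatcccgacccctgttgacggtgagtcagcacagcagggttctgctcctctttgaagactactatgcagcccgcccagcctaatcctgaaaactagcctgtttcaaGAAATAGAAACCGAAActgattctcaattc
Gbp2: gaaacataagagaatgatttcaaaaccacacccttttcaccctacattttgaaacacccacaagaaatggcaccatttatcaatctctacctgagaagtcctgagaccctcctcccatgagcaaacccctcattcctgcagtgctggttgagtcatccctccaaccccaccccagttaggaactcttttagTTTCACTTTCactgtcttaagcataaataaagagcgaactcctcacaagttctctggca
B2m: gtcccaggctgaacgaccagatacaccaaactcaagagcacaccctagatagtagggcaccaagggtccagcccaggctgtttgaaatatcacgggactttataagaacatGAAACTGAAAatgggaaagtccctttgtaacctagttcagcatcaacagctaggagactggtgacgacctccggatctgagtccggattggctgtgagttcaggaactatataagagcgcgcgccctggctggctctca
Irgm1 held 2 overlapping matches 30 to 15 bases before the start, Igtp 1 match 34 to 25 bases before it, and Gbp2 1 match on the opposite strand. The single match of B2m lies farther out, 139 to 130 bases before the start.

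A minority of complement genes was lower. Of 18 tested, 6 were lower and none higher (median -0.73, against 2.80% of all tested genes lower), 2 under median-ratio scaling and 2 to 7 when single libraries were left out. Cfb, factor B of the alternative pathway, was at 0.626, 1.04 and 0.687 FPKM in EAM knockout hearts, against 4.17, 4.02 and 3.87 FPKM in EAM wild-type hearts and 0.111 and 0.0566 FPKM in controls. The 3 groups were fully separate (EAM difference -1.50, SE 0.11, limma adjusted p = 0.00034), and the call stood in all 8 fits that left out 1 library. C1qa, a chain of the C1q recognition molecule made mainly by macrophages, was at 48.7, 43.9 and 43.5 FPKM in EAM knockout hearts, against 76.8, 81.8 and 76.3 FPKM in EAM wild-type hearts and 52.4 and 56.8 FPKM in controls. Its knockout values lay under those of both other groups (-0.78, SE 0.11, limma adjusted p = 0.00986), and the call was lost without EAM knockout 2 (0.0538). The sister chains C1qb and C1qc, the protease gene C1ra and the inhibitor gene Serping1 were the other calls, each lost in 4 to 6 of those 8 fits. C3, the central component, was at 27.1, 37.1 and 14.3 FPKM in EAM knockout hearts, against 78.0, 110 and 45.8 FPKM in EAM wild-type hearts and 11.5 and 18.4 FPKM in controls. Its EAM groups did not overlap, but it did not pass the test (-1.55, SE 0.38, limma adjusted p = 0.0651).

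Some chemokine and macrophage genes were lower. Of 16 chemokine genes tested, 5 were lower and none higher (median -0.62), and of 16 monocyte and macrophage genes, 7 were lower and none higher (median -0.62). Among all tested genes 2.80% were lower. Under median-ratio scaling the lower counts were 2 and 3, and leaving out single libraries gave 1 to 5 and 3 to 7. Ccl8, a monocyte attractant, was at 3.27, 3.63 and 1.31 FPKM in EAM knockout hearts, against 12.8, 9.83 and 11.2 FPKM in EAM wild-type hearts and 0.694 and 1.20 FPKM in controls. The difference was -1.77 (SE 0.25, limma adjusted p = 0.00904), and EAM knockout 3 came nearest to the controls. Ccl7, a related attractant, was at 1.08, 1.76 and 1.60 FPKM in EAM knockout hearts, against 7.46, 3.50 and 13.5 FPKM in EAM wild-type hearts and 0.664 and 1.19 FPKM in controls. The wild-type libraries varied widely (difference -1.74, SE 0.35, limma adjusted p = 0.0344), and the call was lost in 7 of the 8 fits that left out 1 library. Mpeg1, a pore-forming protein of macrophages, was at 2.93, 3.04 and 1.97 FPKM in EAM knockout hearts, against 7.76, 7.22 and 6 FPKM in EAM wild-type hearts and 1.98 and 2.92 FPKM in controls. Cd68, a macrophage lysosomal protein, was at 5.33, 5.53 and 5.08 FPKM in EAM knockout hearts, against 9.58, 9.82 and 9.02 FPKM in EAM wild-type hearts and 5.23 and 6.81 FPKM in controls. For both genes the knockout libraries lay around control level and under all EAM wild-type libraries, at limma adjusted p = 0.00934 and 0.0135. Lyz2, myeloid lysozyme, was at 156, 146 and 111 FPKM in EAM knockout hearts, against 274, 280 and 227 FPKM in EAM wild-type hearts and 115 and 136 FPKM in controls (limma adjusted p = 0.0222, lost in 4 of the 8 fits). Ccl8, Laptm5, Mpeg1 and Cd68 were called in all 8. Under median-ratio scaling Cd68, Lyz2 and Ccl7 were lost (limma adjusted p = 0.0558, 0.0713 and 0.0655).

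Some lists of cell type markers held lower genes, and others had no calls. The summed log2(FPKM + 1) of the 24 listed monocyte and macrophage genes ran from 34.6 to 41.1 in EAM knockout, from 49.3 to 52.7 in EAM wild-type and from 33.9 to 39.9 in control libraries. None of their defining genes was at 0 in all libraries, and 8 of the 24, including Ccr2 and Ptprc, were below the filter. Their part in the antigen presentation, interferon and complement results was not tested. Of 8 resident cardiac macrophage genes tested, none was called and 1 passed an unadjusted limma p under 0.05, with a median of 0.05 and sums over the 10 listed of 23.3 to 24.8 in EAM knockout, 23.1 to 25.4 in EAM wild-type and 25.6 to 27.5 in control libraries. In whole-heart RNA, fewer cells of a type and less RNA per cell cannot be told apart. The 3 tested dendritic cell genes included 2 lower calls (Itgax and Cd209a), and the 6 tested T and NK cell genes 1, Cd3g, a chain of the T-cell receptor complex. Cd3g was at 0.350, 0.239 and 0.412 FPKM in EAM knockout hearts, against 1.51, 1.52 and 0.773 FPKM in EAM wild-type hearts and 0.133 and 0.153 FPKM in controls. All of these lie near or under 1 FPKM, and the call was lost in 7 of the 8 fits that left out 1 library (limma adjusted p up to 0.132). None of 13 B and plasma cell genes or 3 neutrophil genes was called, 4 and 1 of them passed an unadjusted limma p under 0.05, and the neutrophil marker Ly6g was listed at 0 in all libraries. Igha, the constant region of antibody class A, was at 2.31, 3.92 and 0.651 FPKM in EAM knockout hearts, against 18.1, 18.2 and 2.09 FPKM in EAM wild-type hearts and 0.236 and 0.272 FPKM in controls. Its EAM groups overlapped (limma adjusted p = 0.175). The lower phagocyte oxidase genes were Cybb, Rac2 and Ncf1, 3 of 5 tested, and none of the 5 was called under median-ratio scaling.

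**Figure D3:**
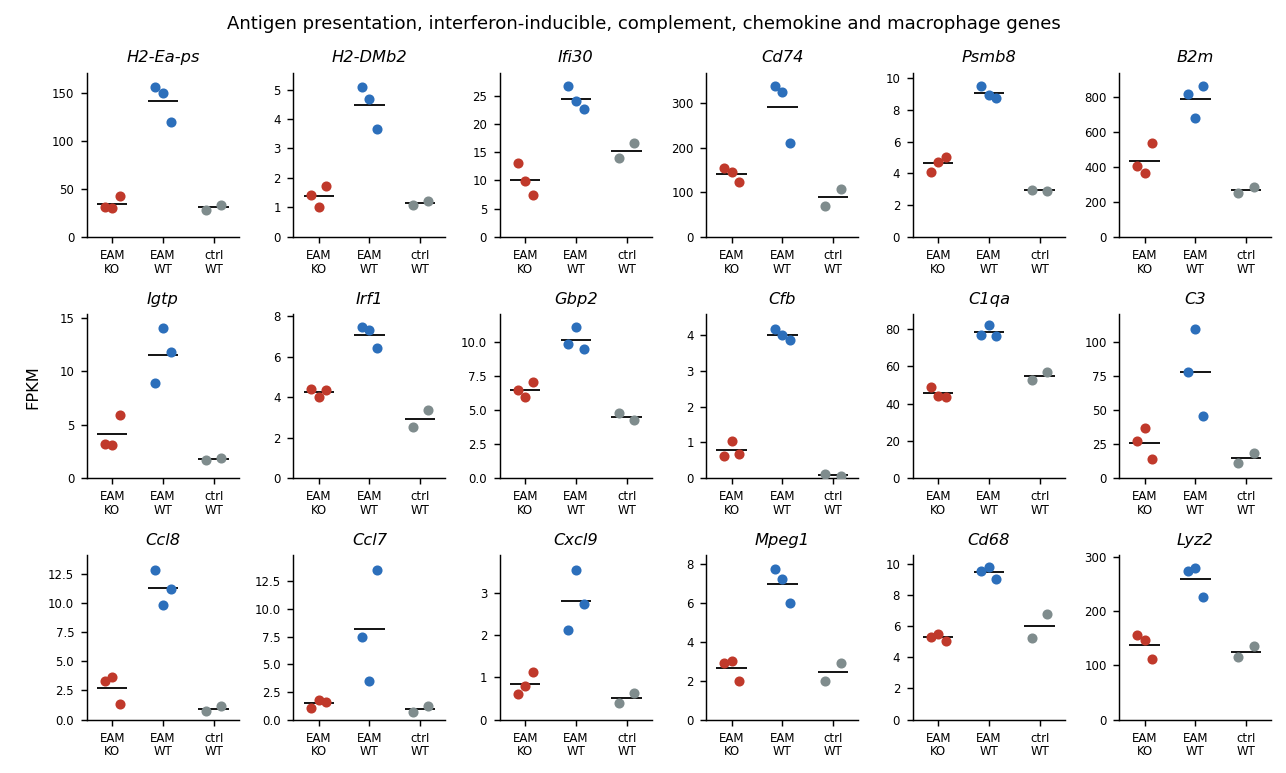
Each panel is 1 antigen presentation, interferon-inducible, complement, chemokine or macrophage gene, with FPKM on a vertical axis that starts at 0, 1 point per library and a bar at the group mean. In all 18 panels the 3 EAM knockout points lie under the 3 EAM wild-type points, as in 22.6% of all tested genes. The panels are picked genes, all but C3 called, and no called gene had overlapping EAM groups.

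The IL-17 arm named in the title held 2 called genes, both in the target list. Of 16 receptor and adaptor genes tested, none was called in either direction, and their median of -0.14 was close to the all-gene median. At an unadjusted limma p under 0.05, 0 of the 16 passed, against 20.0% of all tested genes. Traf3, below the filter, was at 0.761, 0.817 and 0.106 FPKM in EAM knockout hearts, against 0.358, 0.323 and 0.842 FPKM in EAM wild-type hearts and 0.141 and 0.856 FPKM in controls. Its groups overlapped, and transcript levels give no measure of TRAF3 protein. Il17a was listed at 0 in all 8 libraries. Of 15 genes that IL-17A is known to induce in fibroblasts and epithelia, 2 were lower (Ccl7 and Saa3) and none higher, with a median of -0.53, and neither was called under median-ratio scaling. At an unadjusted limma p under 0.05, 11 of these 15 passed, against 20.0% of all tested genes. All 15 had a negative difference, against 72.8%, and 10 lay wholly below the EAM wild type, against 22.6%. Saa3, an acute-phase apolipoprotein, was at 1.63, 0 and 0 FPKM in EAM knockout hearts, against 4.71, 2.33 and 6.87 FPKM in EAM wild-type hearts and 0.668 and 0.384 FPKM in controls. The call was lost in 6 of the 8 fits that left out 1 library (limma adjusted p = 0.0374 with all libraries, up to 0.127). Icam1, an adhesion receptor of the same list, was at 8.99, 10 and 8.51 FPKM in EAM knockout hearts, against 12.8, 13.5 and 14.8 FPKM in EAM wild-type hearts and 5.42 and 7.06 FPKM in controls, without overlap, but did not pass the test (limma adjusted p = 0.0564).

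A minority of matrix and fibroblast genes was lower in EAM knockout hearts. Of 33 myofibroblast and matrix genes tested, 9 were lower and none higher (median -0.57), against 2.80% of all tested genes lower, and of 16 fibroblast genes, 3 were lower and none higher (median -0.57). Under median-ratio scaling the counts were 5 and 1, and leaving out single libraries gave 2 to 9 and 0 to 6. Timp1, an inhibitor of matrix metalloproteinases, was at 1.83, 1.71 and 1.02 FPKM in EAM knockout hearts, against 6.83, 7.59 and 10.7 FPKM in EAM wild-type hearts and 0.854 and 1.96 FPKM in controls. All knockout values lay within the control range (difference -1.89, SE 0.22, limma adjusted p = 0.00421). Postn, a matricellular protein of activated fibroblasts, was at 3.52, 2.21 and 2.54 FPKM in EAM knockout hearts, against 6.87, 6.23 and 5.87 FPKM in EAM wild-type hearts and 4.52 and 4.48 FPKM in controls. Its knockout libraries were the lowest of the 8 (difference -0.98, SE 0.13, limma adjusted p = 0.00874).

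The fibrillar collagen gene Col3a1 was at 29.8, 29.5 and 21.7 FPKM in EAM knockout hearts, against 57.1, 63.5 and 45.1 FPKM in EAM wild-type hearts and 21.8 and 21.4 FPKM in controls. The EAM groups did not overlap (difference -1.01, SE 0.17, limma adjusted p = 0.0173). The call was lost without EAM knockout 2 (0.0508) or EAM wild type 1 (0.0662), and under median-ratio scaling (0.0553). Dcn, the proteoglycan decorin and a general fibroblast marker, was at 295, 250 and 218 FPKM in EAM knockout hearts, against 419, 428 and 397 FPKM in EAM wild-type hearts and 330 and 342 FPKM in controls. Here the knockout was the lowest group (limma adjusted p = 0.0268). The call was lost in 6 of the 8 fits that left out 1 library, and under median-ratio scaling (0.0805). Lum, Loxl2, Timp3, Sparc, Col5a1, Col8a1 and Sfrp1 were also called, with differences of -0.66 to -0.96. Timp1 and Postn were called in all 8 such fits. The summed log2(FPKM + 1) of the 16 fibroblast genes ran from 70.9 to 79.9 in EAM knockout, from 82.2 to 88.1 in EAM wild-type and from 76.7 to 77.3 in control libraries, none of them at 0, and their part in the matrix results was not tested. Smooth muscle and pericyte genes (0 of 15, median -0.17) and endothelial genes (0 of 16, median -0.10) had no calls. At an unadjusted limma p under 0.05, 3 and 2 of them passed, against 20.0% of all tested genes.

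Heat shock chaperones held some of the largest falls. Of 23 tested, 4 were lower and none higher (median -0.33), against 2.80% of all tested genes lower. Not every called gene named below is in this list. The lower calls numbered 3 under median-ratio scaling and 3 to 5 when single libraries were left out. Hspa1b, an inducible HSP70, was at 0.905, 0.661 and 0.436 FPKM in EAM knockout hearts, against 96.9, 28.1 and 17.2 FPKM in EAM wild-type hearts and 16.2 and 5.67 FPKM in controls. All knockout libraries stayed under 1 FPKM, and EAM wild type 1 stood well above the other wild-type libraries (difference -4.49, SE 0.56, limma adjusted p = 0.00592). Hspa1a, a near-identical neighbour on chromosome 17 with which reads may be shared, was at 1.69, 0.862 and 0.494 FPKM in EAM knockout hearts, against 104, 29.1 and 17.8 FPKM in EAM wild-type hearts and 13.4 and 4.70 FPKM in controls. The levels of these copies are uncertain one by one, and both were lower. Dnajb1, an HSP40 partner of HSP70, was at 10.1, 8.25 and 8.45 FPKM in EAM knockout hearts, against 55.2, 32.8 and 31.8 FPKM in EAM wild-type hearts and 18.9 and 13.7 FPKM in controls. Its groups did not overlap (difference -2.0, SE 0.22, limma adjusted p = 0.0026). Hspa1a, Hspa1b and Dnajb1 were called in all 8 fits that left out 1 library. Dnaja1 was lost without any 1 of the knockout libraries, with adjusted p up to 0.09, and Hspa1l, another gene of the HSP70 cluster, was lost in all 8 (0.0402 with all libraries).

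Stress genes of heart muscle cells were lower in part. Of 18 tested, 6 were lower and none higher (median -0.38), against 2.80% of all tested genes lower. The lower calls numbered 2 under median-ratio scaling and 1 to 6 with single libraries left out. Mt2, a metal-binding metallothionein, was at 14.5, 12.5 and 8.02 FPKM in EAM knockout hearts, against 41.6, 35.1 and 33.2 FPKM in EAM wild-type hearts and 24.7 and 34.4 FPKM in controls. Knockout values were under both other groups in every library (difference -1.60, SE 0.21, limma adjusted p = 0.00757), and the call stood in all 8 fits. Ankrd1, a stretch-responsive nuclear and sarcomeric protein, was at 723, 728 and 476 FPKM in EAM knockout hearts, against 1100, 1280 and 1380 FPKM in EAM wild-type hearts and 1020 and 1060 FPKM in controls. Nppb, the natriuretic peptide BNP, was at 417, 411 and 517 FPKM in EAM knockout hearts, against 772, 650 and 1000 FPKM in EAM wild-type hearts and 543 and 561 FPKM in controls. Neither gene had overlapping groups (limma adjusted p = 0.0249 and 0.0364), but their calls were lost in 4 and 7 of the 8 fits that left out 1 library. Nppb was also lost under median-ratio scaling (limma adjusted p = 0.101). Nppa, the sister peptide that atrial muscle makes in quantity, was high in the atrial-rich libraries of both genotypes, at 2460, 2160 and 297 FPKM in EAM knockout hearts, against 317, 3750 and 512 FPKM in EAM wild-type hearts and 162 and 206 FPKM in controls. Of 19 contractile genes, only Tcap was called. This titin-capping protein was at 1010, 939 and 749 FPKM in EAM knockout hearts, against 2270, 1850 and 1980 FPKM in EAM wild-type hearts and 2100 and 2340 FPKM in controls. Both wild-type groups lay far above the knockout (difference -1.18, SE 0.14, limma adjusted p = 0.00546), and the call stood in all 8 fits. Of 19 immediate early genes, 4 were lower (Jun, Jund, Maff and Ier3; median -0.38), and none was called under median-ratio scaling.

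Single genes of muscle electrophysiology and turnover were among the rises. Of 21 calcium handling and channel genes, 1 was higher and 1 lower (median 0.21). Of 12 muscle ubiquitin ligase and atrophy genes, 1 was higher and none lower (median -0.08). Among all tested genes 0.289% were higher. Rrad, a GTPase that restrains calcium channels, was at 137, 130 and 135 FPKM in EAM knockout hearts, against 60.1, 71.5 and 62.4 FPKM in EAM wild-type hearts and 24.3 and 35.1 FPKM in controls. The 3 groups were ordered without overlap (EAM difference 1.04, SE 0.15, limma adjusted p = 0.0105), and the call stood in all 8 fits. Trim63, the muscle ubiquitin ligase MuRF1, was at 20.3, 23.8 and 20 FPKM in EAM knockout hearts, against 11.4, 12 and 12.5 FPKM in EAM wild-type hearts and 20.8 and 15.4 FPKM in controls, so the EAM wild type was the low group. Gaa, the lysosomal enzyme that breaks down glycogen, was at 30.7, 29.0 and 24.2 FPKM in EAM knockout hearts, against 14.4, 19.2 and 14.4 FPKM in EAM wild-type hearts and 17.2 and 15.8 FPKM in controls. Other large rises were Pcp4l1, Lingo3, Ces1d, a carboxylesterase, Dusp23, a phosphatase, Arhgef19, a guanine nucleotide exchange factor, and Pim1, a serine-threonine kinase, with differences of 0.70 to 1.19. The call of Pim1 was lost without EAM knockout 2 (limma adjusted p = 0.0728) or EAM wild type 1 (0.0533), and that of Arhgef19 without EAM knockout 2 (0.0541). Trim63 was lost in 3 of the 8 fits that left out 1 library, Gaa and Lingo3 in 4, Ces1d in 5 and Pcp4l1 in 7, at adjusted p of up to 0.15. Kcna5, a potassium channel gene whose call was lost in 5 of those 8 fits, was the only lower gene of 21 calcium handling and channel genes, at 12, 11.3 and 10.5 FPKM in EAM knockout hearts, against 19.0, 18.9 and 22.5 FPKM in EAM wild-type hearts and 28.6 and 20.6 FPKM in controls. In energy metabolism, 2 of 18 PPAR target and fuel uptake genes were lower (median -0.10) and neither was called under median-ratio scaling. There were no calls in 18 fatty acid oxidation genes (median 0.07), 18 glycolysis genes (median -0.02, Gapdh not listed) or 30 nuclear-encoded respiratory chain genes (median -0.04). At an unadjusted limma p under 0.05, 0 genes of these last 3 lists passed.

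**Figure D4:**
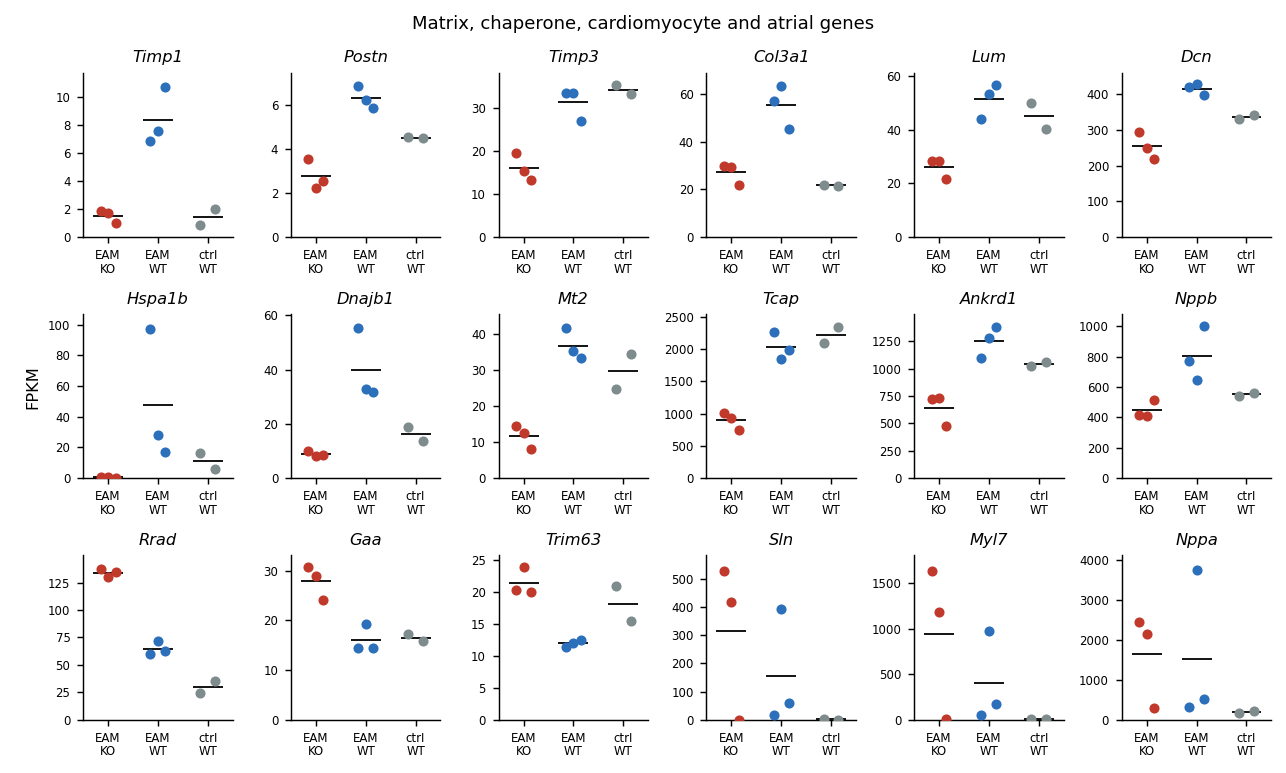
Each panel is 1 matrix, chaperone, cardiomyocyte or atrial gene, with FPKM on a vertical axis that starts at 0, 1 point per library and a bar at the group mean. The first 12 panels have all EAM knockout points under all EAM wild-type points, Rrad, Gaa and Trim63 have them above, and Sln, Myl7 and Nppa are split by library inside both EAM groups. All panels but the atrial ones are picked called genes, and no called gene had overlapping EAM groups. Of all tested genes, 22.6% lay wholly below the EAM wild type and 2.58% wholly above it.

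Several of the most extreme differences lay outside the gene lists described so far. Rpl29, a ribosomal protein gene on chromosome 9, was at 50.9, 49.2 and 47.5 FPKM in EAM knockout hearts, against 0.313, 0.343 and 0.619 FPKM in EAM wild-type hearts and 0.798 and 0.459 FPKM in controls. Gapdh, a glycolytic enzyme gene on chromosome 6, was at 22.9, 24 and 23.1 FPKM in EAM knockout hearts, against 3.72, 2.80 and 3.85 FPKM in EAM wild-type hearts and 2.25 and 3.68 FPKM in controls. Both are used by nearly every cell, and both have many processed copies in the mouse genome, so that the counting may have split their reads and the levels are uncertain. Among expressed rows named after these genes, Rpl29 had 1 and Gapdh 3. The 3 Gapdh rows summed to 23.1, 24.2 and 23.6 FPKM in EAM knockout hearts, against 3.79, 2.93 and 4.06 FPKM in EAM wild-type hearts and 2.43 and 3.68 FPKM in controls. Copies under other names were not in this sum, so it cannot show whether reads were split. The differences were 5.14 (SE 0.12, limma adjusted p = 9.09e-08) for Rpl29 and 2.46 (SE 0.15, limma adjusted p = 9.17e-05) for Gapdh. Aqp6, an aquaporin gene on chromosome 15 best known from the kidney, was at 0.0324, 0 and 0 FPKM in EAM knockout hearts, against 20.4, 23 and 26.7 FPKM in EAM wild-type hearts and 34.0 and 26.4 FPKM in controls. Knockout hearts therefore had almost no signal at a gene that all wild-type hearts expressed (difference -4.58, SE 0.13, limma adjusted p = 2.58e-07). Dynlt1b, a dynein light chain gene in a cluster of near-identical copies on chromosome 17, was at 1.39, 1.41 and 1.35 FPKM in EAM knockout hearts, against 10.9, 13.5 and 14.2 FPKM in EAM wild-type hearts and 14.5 and 11 FPKM in controls. Summed over the 5 copies in the table, the family was at 82.9, 80.5 and 84.2 FPKM in EAM knockout hearts, against 150, 169 and 227 FPKM in EAM wild-type hearts and 165 and 150 FPKM in controls, most of it from the row Dynlt1-ps1. All 4 genes were called in all 8 fits that left out 1 library.

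Hbb-bt, an adult β-globin gene, was at 74.9, 58.1 and 62.2 FPKM in EAM knockout hearts, against 15.4, 9.10 and 10.2 FPKM in EAM wild-type hearts and 8.66 and 22.7 FPKM in controls. Its near-identical neighbour Hbb-bs was at 55.8, 47.0 and 62.6 FPKM in EAM knockout hearts, against 77.1, 148 and 88.0 FPKM in EAM wild-type hearts and 136 and 157 FPKM in controls. The sum of both overlapped between the EAM groups, at 131, 105 and 125 FPKM in EAM knockout hearts, against 92.5, 157 and 98.2 FPKM in EAM wild-type hearts. Hbb-bt lies 1.25 Mb from Trim21. Within 5 Mb of Trim21, 7 of 72 tested genes were called (9.72%, against 3.09% of all tested genes), 2 higher (Hbb-bt and Trim12a) and 5 lower (P2ry6, P2ry2, Trim12c, Ucp2 and Il18bp). Both higher calls stood in all 8 fits that left out 1 library, and the lower ones were lost in 3 to 8 of them. Trim12a, a relative of the antiviral TRIM5 family, was at 1.10, 1.34 and 1.31 FPKM in EAM knockout hearts and was listed at 0 in all 5 wild-type libraries. All libraries are labelled Balb/c, but the labels do not give the strain in which the allele was made. For Rpl29, Gapdh, Aqp6, Dynlt1b, Hbb-bt, Trim12a and H2-Ea-ps, an effect of the lost Trim21 and a sequence difference between the strains of origin cannot be told apart. The same limit holds for called genes around H2-Ea-ps on chromosome 17, between 34135182 and 36121465. They include H2-DMb2, Psmb8, Cfb, Hspa1b, Hspa1a and Hspa1l. For the other called genes a difference in strain was not tested either.

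Among the remaining largest falls, Serpina3n, an acute-phase protease inhibitor in a cluster of related copies, was at 6.31, 8.67 and 4 FPKM in EAM knockout hearts, against 18.2, 23.4 and 16.7 FPKM in EAM wild-type hearts and 3.66 and 6.92 FPKM in controls. Its EAM groups were separate (difference -1.52, SE 0.27, limma adjusted p = 0.0219), and the call was lost without any 1 of the 3 EAM wild-type libraries (0.0513 to 0.0711) and under median-ratio scaling (0.0547). The calls nearest the threshold were Sfrp1 at -0.80 (limma adjusted p = 0.0499) and Cyth4 at -0.65 (limma adjusted p = 0.05 after rounding) inside it, and Fam222a at 0.67 (limma adjusted p = 0.0501) and Smim3 at -1.24 (limma adjusted p = 0.0504) outside it.

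**Figure D5:**
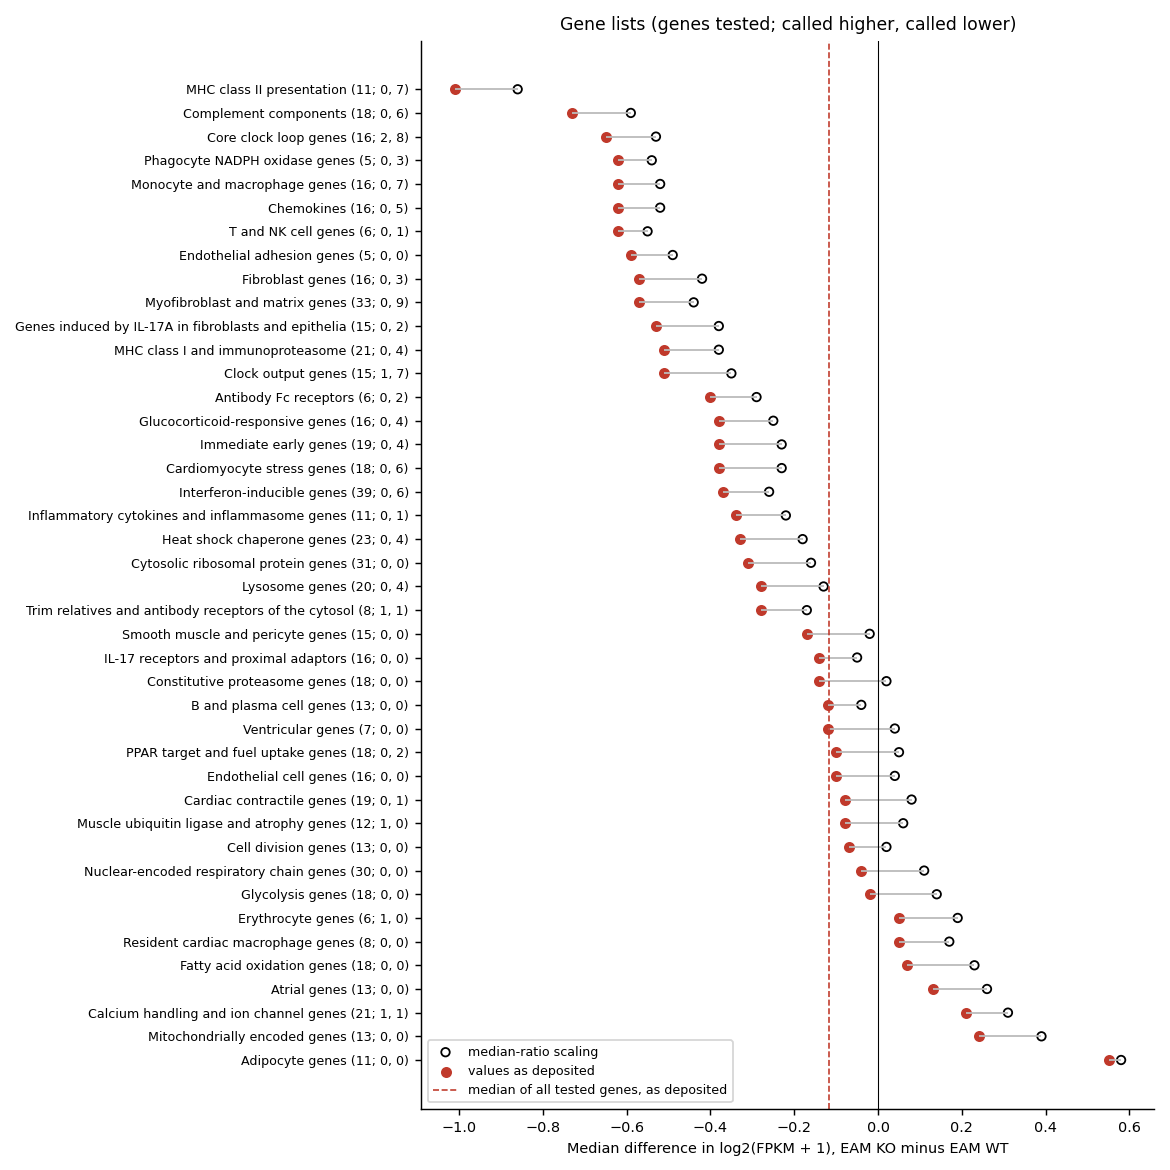
Each row is a gene list with at least 5 tested genes, labelled with the number tested and the numbers called higher and lower. Filled points give the median difference in log2(FPKM + 1), EAM knockout minus EAM wild type, as deposited, open points the same after median-ratio scaling, and the dashed line marks the median of all tested genes at -0.116. MHC class II genes lie lowest at -1.01 and adipocyte genes highest at 0.55, and the adipocyte list has no calls and a median of 0.08 with an atrial block.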

How the data were processed

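The data were mRNA-seq libraries of mouse hearts. The authors deposited FPKM values per gene, made with HISAT2 2.0.4, StringTie 1.3.3b and edgeR on the mm10 build, per the submitters' processing notes. The sources used here name neither the annotation nor the strand setting. No raw counts were used, so no count model was run. Values were transformed to log2(FPKM + 1) and fitted with limma 3.58.1 in R 4.3.3, with a mean-variance trend, over all 8 libraries in 3 groups (5 residual degrees of freedom). P-values were adjusted by Benjamini-Hochberg over 10393 genes at a threshold of 0.05. Shared spread estimates assume that the groups vary alike. Depth was inferred from the steps of low FPKM values, with gene lengths from GENCODE M21, which matched 98.8% of identifiers. A symbol in more than 1 row (59 symbols) was represented in the lists by its row of highest mean. An exact permutation test of 3 against 3 libraries cannot go below a two-sided p of 0.1, so none was used. The comparison, the gene lists and the genes named were chosen with earlier results of these data known. The naming rule took the 15 largest differences per direction among called genes with non-overlapping groups and a mean of at least 5 FPKM in an EAM group, and the genes of the lists described; genes near Trim21 and near-identical copies were named after their values were seen. Alternatives changed the pseudocount, filter, scaling, variance model, samples, replicate block and atrial content. Values of some genes are not reported here.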

Additional observations from a re-analysis of the deposited data

How the results depend on the processing

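Trim21 stayed lower and past the threshold under all 22 alternatives that could be run for it, since the filter of 5 FPKM leaves it out. The count of 30 higher genes became 17 with a filter of 5 FPKM, 46 with median-ratio scaling, 57 with quantile normalization, 46 with an atrial score as covariate and 12 without the 3 atrial-rich libraries, and 20 to 49 when each library was left out in turn. The count of 291 lower genes became 147 with no filter, 178 with a filter of 5 FPKM, 85 with median-ratio scaling, 98 with quantile normalization, 174 with equal sums without mitochondrial genes, 489 with library weights, 33 without the atrial-rich libraries, 72 with median-ratio scaling and an atrial block (chosen after seeing the data), and 72 to 211 when each library was left out. The cause of these changes was not tested. Leaving out a library also leaves fewer samples, and a filter changes which genes are tested. Whether replicate numbers pair the animals could not be settled. The earlier names number replicates 1, 2 and 3 as 2, 5 and 6 in EAM knockout and as 1, 3 and 4 in EAM wild type. These names share no number between the EAM groups and state no pairing. By replicate number, the correlations of same-numbered EAM libraries were -0.0896, 0.355 and 0.311, and those of differently numbered ones ran from -0.499 to 0.256. Atrial-rich libraries also correlated across numbers, as EAM wild type 2 did with EAM knockout 1 (0.256), so these values cannot isolate pairing. A replicate block gave 28 higher and 225 lower genes. Of the 106 called genes named, 13 were called under every alternative that kept them (22 or 23), and no called gene changed sign. Under median-ratio scaling 48 of the 106 lost their call. Without the atrial-rich libraries 1 knockout library was left, and list medians were -0.40 to -0.86 against -0.166 for all genes. These lists were the core clock, complement, chemokine, monocyte and macrophage, matrix, fibroblast and heat shock genes. Among genes not called, the atrial genes changed sign. With a pseudocount of 5, Sln moved to 0.39 and Myl7 to 0.09. When each library was left out in turn, Sln ranged from -1.75 to 2.70, Myl7 from -2.20 to 2.79 and Nppa from -0.25 to 1.53. Nppa moved to -0.51 with library weights, -0.44 without the atrial-rich libraries, -0.57 with an atrial block and -0.40 with that block and median-ratio scaling. Depth limits genes near 1 FPKM most, and FPKM steps leave 3 fragments of Trim21 at 0.0477 to 0.0561 FPKM.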

Other observations

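Several smaller gene groups were described by counts that the report does not give. Among all tested genes 2.80% were lower. Of 6 antibody Fc receptor genes tested, Fcgr4 and Fcgr2b, an activating and an inhibitory receptor of myeloid cells, were lower in EAM knockout hearts (limma adjusted p = 0.0294 each), and neither was called under median-ratio scaling. Of 20 lysosome genes, 4 were lower (Laptm5, Ctsk, Ctss and Npc2; median -0.28). Ctsk, a collagen-cleaving cathepsin, was at 3.22, 3.04 and 2.55 FPKM in EAM knockout hearts, against 6.48, 8.50 and 6.46 FPKM in EAM wild-type hearts and 4.14 and 5.17 FPKM in controls, without overlap (difference -1.04, SE 0.13, limma adjusted p = 0.00628). Of 16 glucocorticoid-responsive genes, 4 were lower (Per1, Mt2, Map3k6 and Tsc22d3; median -0.38), 2 of which also stand in the clock lists.

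Some groups separated the genotypes without any call. None of 5 endothelial adhesion genes was called, yet all 5 lay wholly below the EAM wild type in the knockout and passed an unadjusted limma p under 0.05 (median -0.59), against 22.6% and 20.0% of all tested genes. Of 31 cytosolic ribosomal protein genes, none was called, 14 lay wholly below the EAM wild type and 12 passed an unadjusted limma p under 0.05 (median -0.31, or -0.16 after median-ratio scaling). That list does not hold Rpl29, whose difference was 5.14. Adipocyte genes had the highest list median, 0.55, with none of 11 called and 1 at an unadjusted limma p under 0.05. The median was 0.08 with an atrial block and -0.02 without the 3 atrial-rich libraries. Their summed log2(FPKM + 1) over the 12 listed ran from 18.7 to 40.1 in EAM knockout, from 17.9 to 32.8 in EAM wild-type and from 18.7 to 19.0 in control libraries, and was highest in EAM knockout 1 and EAM wild type 2, both atrial-rich.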
